A study of Mus musculus with 6 samples.

Results

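The genes described here are 10 genes of GABAergic interneurons, namely Gad1, Gad2, Slc32a1, Pvalb, Sst, Npy, Reln, Lhx6, Dlx1 and Erbb4. They were chosen by name, as array probe sets that the platform annotation pairs with that single gene symbol. No measured value entered that rule, but the choice was made with earlier results of these data known. Each of the 10 had 1 probe set, out of 19938 genes named by a single symbol. Expression was measured in the hippocampus of adult male C57BL/6J mice 70 days old, and the question was whether ethanol given to the newborn animal left a difference in these genes in the adult. Ethanol mice had been injected under the skin with 2.5 g/kg ethanol in saline, 2 times a day, on postnatal day 4 and again on day 7. Control mice came from the same litters and were injected with saline on the same schedule, so that handling and injection were shared by both groups. RNA of 3 males from different litters was pooled for each array, and each group had 3 arrays, which gave 6 pools for 18 mice. The labels name no transgene or deletion in either group.

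GABA is the main inhibitory transmitter of the adult brain. In the hippocampus it is released by interneurons, a minority of the neurons, which hold the activity of the far more numerous glutamatergic granule and pyramidal cells in check. Interneurons arise in the ganglionic eminences of the embryo under the control of Dlx and, in the medial eminence, Lhx6 transcription factors, and they migrate into the hippocampus and mature after birth. They fall into classes that are told apart by the calcium-binding proteins and peptides they make. Parvalbumin marks fast-spiking cells that contact the cell body and initial axon of pyramidal cells, and somatostatin marks cells that contact their distal dendrites.

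The values are log2 expression levels, so that a difference of 1 is a doubling, and a difference between groups is given as ethanol minus saline with its standard error (SE). All 10 genes were well measured. Each was above 5.38, the level under which 95% of 1194 olfactory and vomeronasal receptor genes lay, and above the median level of all genes, 6.77. Markers of the neurons that make up most of the hippocampus were at much the same level in all pools only as a mean. The 14 markers of granule and pyramidal cells were all above the receptor gene level. Their mean lay between -0.053 and 0.043 of the saline mean in the 6 pools. Single markers varied more, and a mean can hide shifts in opposite directions. Prox1 was at 9.567 in ethanol pool 3 and between 9.798 and 9.869 in saline. Spink8 ranged from 8.049 to 8.455 within saline and was at 8.434 in ethanol pool 3. Whole tissue was used, and a lower level through fewer interneurons cannot be told apart from less RNA in each interneuron.

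None of the 10 genes passed the test for a difference between ethanol and saline. With limma, 0 of the 10 had an unadjusted p under 0.05, against 1040 of all 19938 genes (5.22%). At an adjusted p under 0.05 there were 0 of 10, and 0 of all genes (0%). Saline and ethanol pools overlapped in all 10, and in 2081 of all genes (10.4%) they did not. With only 10 genes, these counts of 0 do not set them apart from all genes. The lowest unadjusted p among the 10 was 0.155, for Sst. The difference was above 0 in 5 genes and below 0 in 5, with a median of 0.001, and its median size without regard to sign was 0.037, the same as over all genes. Among the 8619 genes whose level lay in the range of these 10, that median size was 0.033. The spread between pools of a group was slightly wider for the 10 genes, with a median standard deviation (SD) of 0.073 against 0.06 over all genes.

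**Figure D1:**
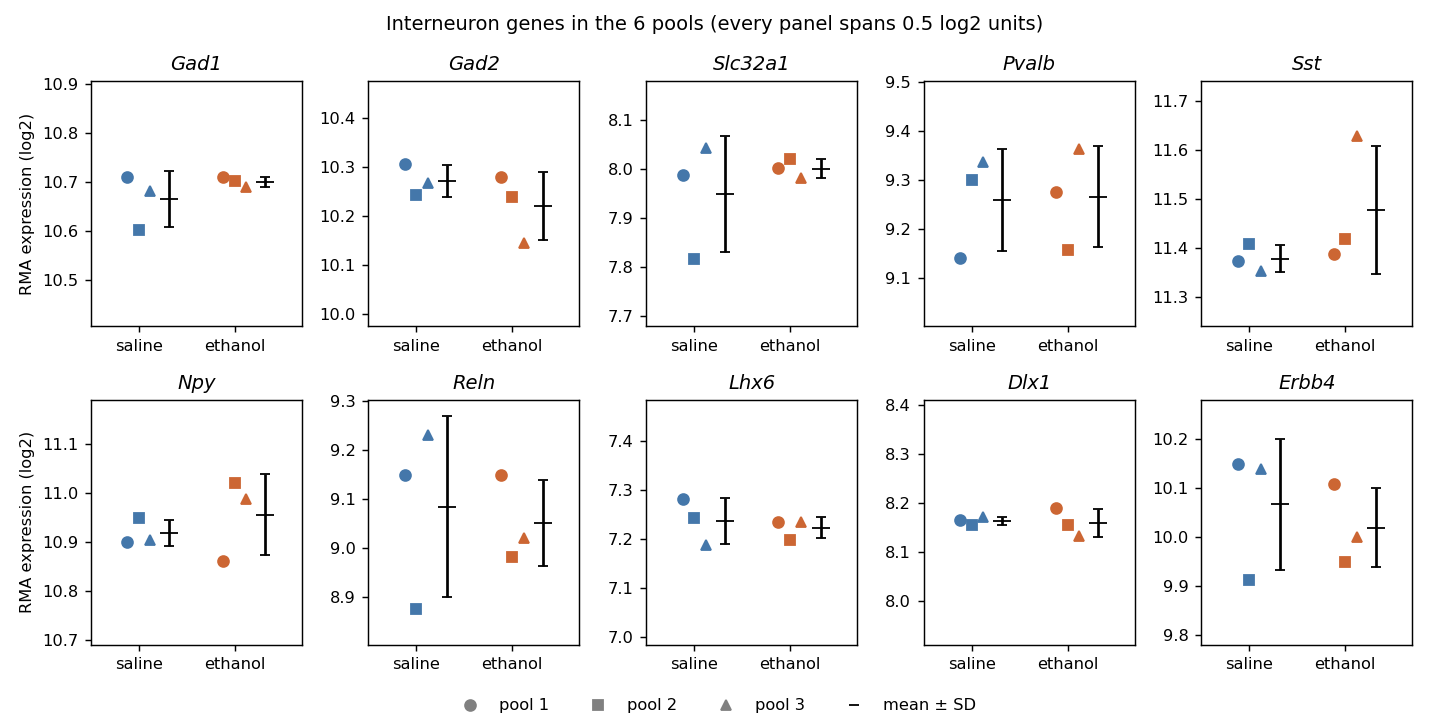
Log2 expression of the 10 interneuron genes in the 3 saline pools (blue) and the 3 ethanol pools (orange), with symbols for the pool number and a bar for the mean ± SD; each panel spans 0.5 log2 units. In every panel the groups overlap, with Reln spread over 0.354 and Dlx1 over 0.057 across the 6 pools.

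Synthesis of GABA from glutamate and its loading into vesicles are the functions that define these cells. Gad1 encodes GAD67, the form of glutamate decarboxylase that supplies most of the GABA of the brain. It was at 10.71, 10.60 and 10.68 in saline pools 1 to 3 and at 10.71, 10.70 and 10.69 in ethanol pools 1 to 3. Saline pool 2 was the lowest of the 6 and the others lay within a narrow band, so that the SD was 0.056 in saline and 0.01 in ethanol. Ethanol minus saline was 0.035 ± 0.042 (SE, n = 3 pools per group, limma, adjusted p = 0.963), with a 95% interval from 0.958- to 1.1-fold.

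Gad2 encodes GAD65, the form bound to synaptic vesicles in the axon terminal. Its levels were 10.31, 10.24 and 10.27 in saline and 10.28, 10.24 and 10.14 in ethanol. Ethanol pool 3 was the lowest, and the other ethanol pools lay inside the saline range or just under it. The difference was -0.051 ± 0.047 (SE, n = 3, adjusted p = 0.944), and the interval ran from 0.897- to 1.04-fold.

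Slc32a1 encodes VGAT, the transporter that fills vesicles with GABA or glycine. In saline it was at 7.988, 7.815 and 8.043, and in ethanol at 8.001, 8.019 and 7.981. Saline pool 2 was again the lowest pool, and the 3 ethanol pools lay between the lowest and the highest saline pool. The difference was 0.052 ± 0.06 (SE, n = 3, adjusted p = 0.962), with an interval from 0.943- to 1.14-fold.

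Gad1 and Gad2 had differences of opposite sign, neither of which passed, and both probe sets were also set against each other on the same array. Gad1 minus Gad2 was 0.406, 0.361 and 0.417 in saline and 0.432, 0.465 and 0.546 in ethanol, means of 0.395 (SD 0.03) and 0.481 (SD 0.059). Every ethanol pool was above every saline pool, by 0.086 on average. Of the 45 pairs that can be formed from the 10 genes this was the only one without overlap (2.22%). The pairs share genes, and the share over pairs of all genes was not computed. The 10.4% above is of single genes and is an unlike measure. The pair was picked after its values were seen, and is given as a description without a test.

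The stretches upstream of the start sites of this pair of GABA-synthesizing enzymes, and of Sst, whose difference was the largest of the 10 although it did not pass, are shown as examples of the sequence at these genes. They are the 120 bases before the annotated start, read in the direction of the gene, from RefSeq on mouse build GRCm38.p6, which holds a promoter window for 10 of the 10 genes. Capitals mark the cyclic AMP response element TGACGTCA and its core TGACG, searched on both strands; the core is contained in the whole element, and in Gad2 it lies on the opposite strand.
Gad1, chr2:70562009-70562128, plus strand: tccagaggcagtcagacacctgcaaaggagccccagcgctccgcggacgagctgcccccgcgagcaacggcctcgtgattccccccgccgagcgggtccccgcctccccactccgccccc
Gad2, chr2:22622207-22622326, plus strand: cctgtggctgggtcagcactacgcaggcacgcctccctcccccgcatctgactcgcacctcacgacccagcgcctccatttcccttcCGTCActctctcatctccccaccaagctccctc
Sst, chr16:23890845-23890964, minus strand: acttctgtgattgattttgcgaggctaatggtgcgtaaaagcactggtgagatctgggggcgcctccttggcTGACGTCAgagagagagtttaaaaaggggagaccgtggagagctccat
In windows of 300 bases around the start, the whole element was found in 1 of the 10 genes, Sst, at position -48 from the start site, and in 1.79% of all 32851 RefSeq windows. The core was found in Sst and in Gad2, where it lies at position -33, and in 20.8% of all windows. The homeodomain core TAATTA, searched because Dlx and Lhx proteins bind such letters, was in 0 of the 10 genes and in 5.29% of all windows. The TATA box letters TATAAA were in 2 of the 10 genes, Gad1 and Lhx6, and in 13.6% of all windows. Both matches lay on the opposite strand, at position -141 in Gad1, outside the stretch shown. In Lhx6 the match was at position 4, after the start, in 1 of several windows. The 10 genes have 13 windows, so a count of genes and a share of windows are unlike measures. These matches describe the letters alone.

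Class markers were the next group. Sst encodes somatostatin, the peptide of dendrite-targeting interneurons. It was at 11.38, 11.41 and 11.35 in saline and at 11.39, 11.42 and 11.63 in ethanol. Ethanol pool 3 stood 0.25 above the saline mean while the other ethanol pools lay at 0.009 and 0.041 from it, so that most of the difference came from 1 pool. The difference was 0.10 ± 0.064 (SE, n = 3, 1.07-fold, interval 0.969 to 1.19, adjusted p = 0.931), and without ethanol pool 3 it was 0.025. Of the receptors of somatostatin, Sstr4 was the brightest and lay at 0.026 ± 0.05.

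Npy encodes neuropeptide Y, which many somatostatin cells and the neurogliaform and ivy cells make. It was at 10.90, 10.95 and 10.90 in saline and at 10.86, 11.02 and 10.99 in ethanol. The ethanol pools held both the highest and the lowest value of the 6. The difference was 0.038 ± 0.05 (SE, n = 3, adjusted p = 0.964), with an interval from 0.949- to 1.11-fold. Npy2r, the presynaptic receptor of neuropeptide Y, was at 0.003 ± 0.061.

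Pvalb encodes parvalbumin, the calcium buffer of basket and axo-axonic cells. Its levels were 9.14, 9.30 and 9.34 in saline and 9.28, 9.16 and 9.36 in ethanol. Each group held 1 low pool and 2 higher ones, with SDs of 0.104 and 0.103. The difference was 0.006 ± 0.068 (SE, n = 3, adjusted p = 0.996), and the interval ran from 0.902- to 1.12-fold.

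Reln encodes reelin, a secreted protein that guides neuronal layering in development and that interneurons of the adult hippocampus make. It varied most, at 9.15, 8.88 and 9.23 in saline and 9.15, 8.98 and 9.02 in ethanol. All ethanol pools fell inside the saline range. The difference was -0.034 ± 0.089 (SE, n = 3, adjusted p = 0.983), with the widest interval of the 10, from 0.849- to 1.12-fold.

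Of the transcription factors, Lhx6 drives the fate of interneurons from the medial ganglionic eminence and stays on in parvalbumin and somatostatin cells. It was at 7.28, 7.24 and 7.19 in saline and 7.24, 7.20 and 7.24 in ethanol, again with ethanol inside the saline range. The difference was -0.014 ± 0.041 (SE, n = 3, adjusted p = 0.985, interval 0.928- to 1.06-fold). Dlx1, a homeodomain factor that keeps certain dendrite-targeting interneurons alive in the adult, was at 8.16, 8.15 and 8.17 in saline and 8.19, 8.16 and 8.13 in ethanol. It was the most even of the 10 genes, with an SD of 0.009 in saline and 0.029 in ethanol. Its difference was -0.004 ± 0.038 (SE, n = 3, adjusted p = 0.995, interval 0.939- to 1.06-fold).

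Erbb4 encodes the neuregulin receptor of interneurons, which is needed for excitatory synapses onto parvalbumin cells. In saline it was at 10.148, 9.912 and 10.139, and in ethanol at 10.107, 9.949 and 9.999. Pool 2 was the lowest pool in each group. The difference was -0.048 ± 0.071 (SE, n = 3, adjusted p = 0.971), with an interval from 0.864- to 1.08-fold.

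**Figure D2:**
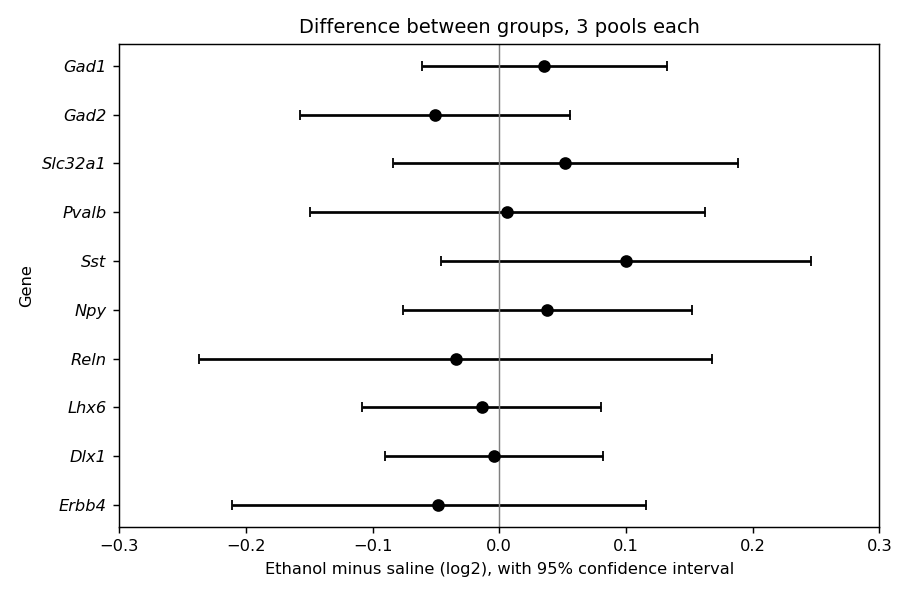
Ethanol minus saline on the log2 scale for the 10 genes (points), with the 95% confidence interval of limma (lines), 3 pools per group. All intervals include 0; Sst has the highest point at 0.10 and Gad2 the lowest at -0.051, and the interval of Reln is the widest.

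Across the 10 genes the lowest bound was 0.849-fold, for Reln, and the highest 1.19-fold, for Sst. Each interval holds the sizes of change that the 3 pools per group leave possible for that gene, and it was narrowest for Dlx1. An average over 3 mice hides what single animals do.

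Saline pool 2 stood apart in several genes. It was the lowest of the 6 pools in 4 of the 10 genes, Gad1, Slc32a1, Reln and Erbb4, and the highest in 0. Saline pool 1 was the highest in 4. Reln and Erbb4 had much the same profile: from the saline mean, Reln lay at 0.063, -0.208 and 0.145 in saline and 0.064, -0.103 and -0.065 in ethanol. Erbb4 lay at 0.082, -0.154 and 0.073 in saline and 0.041, -0.117 and -0.067 in ethanol. For both genes the pools numbered 2 were the lowest of their group. The labels do not say whether the number stands for a shared litter or day. Over the 10 genes together the median lay between -0.021 and 0.037 in every pool.

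Marker genes of tissue next to the hippocampus differed between the pools. The 8 markers of the habenula, a small nucleus above the thalamus, had a mean of 0.359 in saline pool 2 and 0.427 in ethanol pool 2 from the saline mean, and between -0.218 and -0.039 in the other 4 pools. Single markers of that list differed. Chrna3 was at 5.481, 7.152 and 5.483 in saline pools 1 to 3, whereas Nwd2 was at 8.524, 8.436 and 8.439. The 16 markers of thalamic relay neurons had a mean between -0.021 and 0.021 in the saline pools and of 0.755, 0.266 and 0.129 in ethanol pools 1 to 3, and 10 of them passed the unadjusted threshold, all higher in ethanol. In ethanol pool 1, where the thalamus mean was at 0.755, the 10 interneuron genes lay between -0.056 and 0.064 of their saline means. Choroid plexus, which secretes cerebrospinal fluid, was represented by 14 markers, with a mean from -0.165 to 0.197 in saline and of 1.11, -0.279 and 0.66 in ethanol. Striatal projection neurons are GABAergic as well, and 1 of their 8 measured markers passed. That was Drd2, a dopamine receptor, at 0.184 ± 0.066, whereas Drd1 was at -0.124 ± 0.088. The mean of the 8 lay between -0.046 and 0.061 in all pools. The part of neighbouring tissue in the levels of the 10 genes was not tested.

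**Figure D3:**
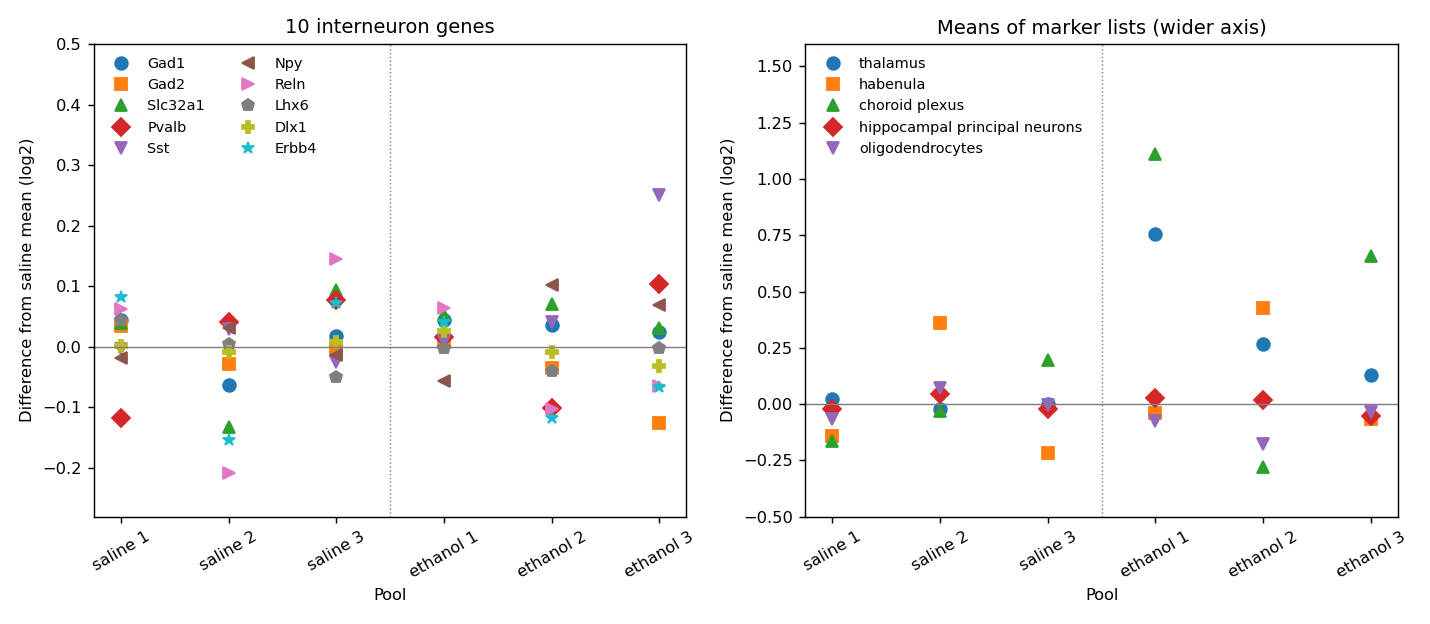
Left, difference of each of the 10 genes from its saline mean (log2) in the 6 pools; right, the mean of 5 marker lists on a wider axis. Saline pool 2 holds the low values of Reln, Erbb4, Slc32a1 and Gad1, and Sst stands at 0.25 in ethanol pool 3; the habenula markers are high in both pools numbered 2 and the thalamus and choroid plexus markers in ethanol pool 1.

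Other genes of GABAergic transmission and of interneurons were taken in 7 lists with 100 genes, of which 94 were analysed here. Of the 94, 3 (3.19%) had an unadjusted p under 0.05 (limma), beside 5.22% of all genes, and 0 passed after adjustment. So small a count does not set the lists apart from all genes. The 3 were Calb2, which was higher in ethanol, and Npas1 and Erbb3, which were lower. The median difference over the 94 genes was -0.008, with 41 above and 53 below 0. In 6 of the 94 the pools of the groups did not overlap, against 2081 of all 19938 genes (10.4%). At the level of receptor genes were 11 of the 94.

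GABA uptake, breakdown and GABA-B receptors gave 0 of 11 genes past the threshold, with a median of 0.004. Glul, the astrocytic glutamine synthetase that supplies the precursor of GABA and glutamate, was at -0.004 ± 0.043, and Gabbr1, a subunit of the GABA-B receptor, at 0.004 ± 0.04. Both were nearly even across the pools.

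Among 25 further class markers 1 passed. Calb2 encodes calretinin, the calcium-binding protein of interneurons that contact other interneurons, which mossy cells of the mouse dentate gyrus also make. It was at 9.85, 9.77 and 9.86 in saline and at 10.15, 9.90 and 10.03 in ethanol. Each ethanol pool was above each saline pool, and ethanol pool 1 was the highest. The difference was 0.20 ± 0.064 (SE, n = 3, 1.15-fold, interval 1.04 to 1.27, limma, unadjusted p = 0.0128, adjusted p = 0.931), while the unadjusted value by the methods' t-test was 0.06, on the other side of the threshold. Ethanol pool 1 was also the pool with the highest thalamus markers, with a mean of 0.755 from the saline mean. Without that pool the difference of Calb2 fell to 0.139 and passed the unadjusted threshold. The ethanol pools kept in that fit, 2 and 3, also had thalamus means above those of all saline pools, at 0.266 and 0.129.

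Calb2 is one of the 6 markers used for Cajal-Retzius cells, the cells at the hippocampal fissure that also make reelin. The mean of that list was between -0.004 and 0.004 in saline and at 0.119, 0.035 and 0.04 in ethanol. Calb2 itself is part of this mean, so the mean is not separate from the Calb2 difference. Besides Calb2, Cacna2d2, a calcium channel subunit, passed at 0.105 ± 0.042, whereas Ndnf, the other marker above the level of receptor genes, was at -0.045 ± 0.057. Trp73, Lhx1 and Lhx5, the factors that define these cells, were at the level of receptor genes in these arrays. They were at 0.089 ± 0.04, 0.031 ± 0.044 and 0.006 ± 0.044, and each ethanol pool was above each saline pool in Trp73. Of the 6 markers, Calb2 included, 5 had a difference above 0 and 1 below. The part of Cajal-Retzius or thalamic cells in the Calb2 difference was not tested. The brightest of the other class markers, Cck and Calb1, were at 0.057 ± 0.044 and 0.053 ± 0.042. In whole tissue their RNA need not come from interneurons alone, and its source was not tested.

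The 18 transcription factors measured had a median of -0.011 and 1 that passed. Npas1, a factor of interneurons from the caudal and medial eminences, was at 7.05, 7.06 and 7.25 in saline and at 6.99, 6.85 and 7.02 in ethanol. The ethanol pools lay below the saline pools by a margin that was small beside the range of the saline pools. The difference was -0.161 ± 0.068 (SE, n = 3, adjusted p = 0.931), and it passed in 3 of the 6 fits that left out 1 pool. Its unadjusted p of 0.0434 (limma) became 0.128 by the methods' t-test, 0.0672 over all rows of the value table and 0.0561 with an intensity trend. Zeb2 and Etv1, the brightest of the list, were at -0.013 ± 0.042 and -0.008 ± 0.042, and Dlx2, the neighbour and partner of Dlx1, was at 0.003 ± 0.053.

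Of the 9 other genes of the ERBB family and its ligands, 1 passed. Erbb3 encodes a neuregulin receptor that in the brain is made mainly by cells of the oligodendrocyte lineage. It was at 7.56, 7.46 and 7.65 in saline and 7.43, 7.47 and 7.41 in ethanol, and saline pool 2 lay inside the ethanol range. The difference was -0.124 ± 0.053 (SE, n = 3, adjusted p = 0.931), and it passed in 1 of the 6 fits that left out 1 pool. Its unadjusted p of 0.0465 (limma) became 0.0714 with the pool number as a block and 0.0971 by the methods' t-test, and it did not pass in 11 of the 17 other settings tried. Of 9 oligodendrocyte markers, 3 were past the unadjusted threshold, all lower in ethanol. The mean of the 9 lay between -0.067 and 0.072 in saline and between -0.179 and -0.034 in ethanol, so that the pools overlapped. Their part in the Erbb3 difference was not tested. None of the ligands of Erbb4 in the list passed. Among the neuregulins, Nrg1 was at 0.047 ± 0.052, Nrg2 at 0.005 ± 0.058, Nrg3 at 0.015 ± 0.038 and Nrg4 at -0.04 ± 0.054. Hbegf and Btc, ligands shared with the EGF receptor, were at -0.085 ± 0.064 and 0.063 ± 0.052.

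Reelin acts through the receptors Lrp8 and Vldlr on the adaptor Dab1. Of the 8 genes of this pathway 0 passed, with a median of -0.017. Dab1 was at 10.83, 10.81 and 10.84 in saline and 10.77, 10.77 and 10.75 in ethanol, so that the pools did not overlap, and the difference was -0.06 ± 0.036. Pafah1b1, a regulator of dynein, was at 0.002 ± 0.042, Lrp8 at 0.008 ± 0.047 and Vldlr at -0.027 ± 0.056. Of the 8 receptors of somatostatin and neuropeptide Y, 0 passed, with a median of -0.025. Channels of fast-spiking cells and proteins of perineuronal nets, the matrix that wraps parvalbumin cells, gave 0 of 15, with a median of -0.028 and 12 below 0. The brightest of them, the potassium channel genes Kcnab1 and Kcna2, were at -0.002 ± 0.043 and 0.031 ± 0.064.

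**Figure D4:**
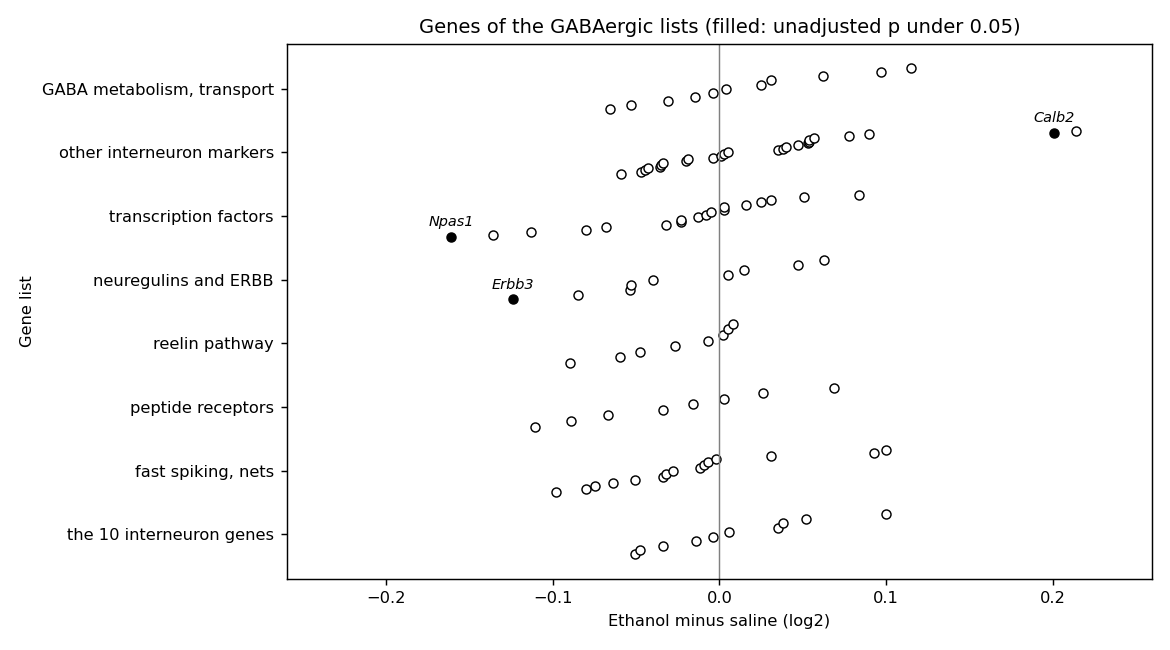
Ethanol minus saline (log2) for each measured gene of the 7 further lists and for the 10 interneuron genes, 1 circle per gene, filled where the unadjusted p of limma was under 0.05. Calb2 lies at 0.20, Npas1 at -0.161 and Erbb3 at -0.124; the open circle to the right of Calb2 is Tac2 at 0.214 ± 0.274.

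The counts in these lists depended on which saline pools were used. Without saline pool 3, 1 of the 94 genes passed the unadjusted threshold. Without saline pool 2, 11 of the 94 genes passed the unadjusted threshold, against 1002 of all 19938 genes (5.03%), and 0 passed after adjustment. Of the 11, 9 were lower in ethanol, with Satb1, a chromatin organizer of maturing interneurons, at -0.209 and Npas1 at -0.19. Others were the somatostatin receptors Sstr1 at -0.187 and Sstr2 at -0.156, Kcna1 at -0.141, and Syt2, a calcium sensor in the terminals of parvalbumin cells, at -0.171. Higher were Calb2 at 0.175 and Tac2 at 0.518, the latter also a habenula marker. None of the 10 interneuron genes passed without saline pool 2; Reln came closest, at -0.139 (limma, unadjusted p = 0.0586).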

How the data were processed

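Hippocampal RNA of 6 pools was hybridized to Affymetrix Mouse Gene 1.0 ST arrays. The authors summarized the probe intensities with RMA, and the deposited values are log2 expression levels per probe set; the RMA version is not given in the sources used here. They were used as deposited (3.51 to 13.9; array medians 5.84 to 5.89). Groups came from the treatment labels. The 23410 of 35556 probe sets with a gene symbol were fitted with lmFit and eBayes (limma 3.58.1, R 4.3.3), without covariates, 2-sided, with Benjamini-Hochberg adjustment over all of them; a gene with several was read from its brightest. An exact permutation test of 3 against 3 cannot go below 0.1 and was not used. The fit was tested on simulated data with independent noise for each probe set. Of 67 probe sets changed 1.2-fold, limma recovered 60 at an unadjusted p under 0.05 and 25 after adjustment. The simulation held no differences shared by many genes of a pool, so it does not cover those.

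The 10 genes and the further lists were chosen with earlier results of these data known. Named were the 10 genes and list genes past an unadjusted p of 0.05 (at most 4 per list). The 2 brightest where fewer than 2 passed, and partners of the named genes, were named as well. After values were seen, single genes of the marker lists, the genes passing without saline pool 2, Tac2 and Dab1 were added. Alternatives were an ordinary t-test, the pool number as a block, other scalings and filters, array weights, an intensity trend, and each pool left out. For 2 groups that t-test gives the same p as the ANOVA that the paper names. Promoters came from RefSeq, and figures were drawn with matplotlib 3.10.9.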

Additional observations from a re-analysis of the deposited data

How the results depend on the processing

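In all 17 other settings 0 of the 10 interneuron genes passed the unadjusted or the adjusted threshold. The direction turned in at least 1 setting in Pvalb, Lhx6, Slc32a1, Reln and Dlx1: Pvalb was at -0.009 with median centring and at -0.037 with array weights, Lhx6 at 0.005 with array weights, and, with the pools numbered 2 of both groups left out, a setting chosen after seeing the data, Slc32a1 was at -0.024 and Lhx6 at 0.001. With 1 pool left out, differences ranged from -0.053 to 0.06 in Pvalb, -0.039 to 0.008 in Lhx6, -0.015 to 0.099 in Slc32a1, -0.139 to 0.038 in Reln and -0.02 to 0.009 in Dlx1, and the median of the 10 from -0.01 to 0.035, the latter without saline pool 3. Of the 94 other genes, 1 passed over all rows of the value table, 5 with array weights, 7 with the pools numbered 2 left out, and 1 to 11 with 1 pool left out; the cause was not tested. Higher and lower calls were 1 and 2, and 1 and 1 after quantile normalization. Whether shared numbers pair the pools was not settled. Over all probe sets with a gene symbol, correlations of same-numbered pools were -0.049, -0.022 and 0.059. Those of differently numbered pools ranged from -0.18 to 0.167. With 3 pools centred within each group, such values cannot decide it, and the mean of the habenula markers was high in both pools numbered 2. The replicate block gave 0 of 10 and 2 of 94, with Erbb3 lost at an unadjusted p = 0.0714 (limma). With 3 pools per group the number of arrays limits the precision.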
